A study of Mus musculus with 23 samples.

Results

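The genes described here code for the proteins of the cytoplasmic ribosome. They were taken from the expression table by symbol: Rpl or Rps followed by a number and, in some, a suffix, or one of Rplp0, Rplp1, Rplp2 and Rpsa. This gave 84 of the 23284 rows, 51 for the large and 33 for the small subunit, with the 76 mitochondrial ribosomal proteins (Mrpl and Mrps) outside the rule. The naming rule also missed a few genes that make cytoplasmic ribosomal proteins, such as Fau and Rpl36al. The genes lie on 19 chromosomes, with 14 of them on chromosome 7.

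The RNA-seq libraries came from 16 single mesenchymal stem cells of mouse bone marrow (mMSC1 to mMSC16), 5 single HL-1 cardiomyocytes (HL1cm1 to HL1cm5) and 1 population control of each cell type (mMSC-PC and HL1cm-PC). All are labelled C57BL/6J. The mMSCs were purchased cells from male mice, used at passages 6 to 11, and HL-1, an established mouse cardiomyocyte line, was at passages 70 to 85. The study names no treatment or genetic change as a contrast between the groups. Genetic differences between the HL-1 line and the mMSCs were not examined. Norepinephrine was part of the HL1cm growth medium and is not listed for the mMSC medium. mMSCs and HL1cm shared 1 microfluidic capture run, whose chip takes diameters from 17 to 25 micrometres, with the HL1cm marked by a green dye, and the population controls were amplified in parallel. Values are in FPKM, fragments scaled by exon length and by the number of mapped fragments. No separate cultures are named, so each cell type was 1 sample, differences between them are described without a test, and the SD is that between cells. The table holds no read counts, and the depth behind a value is unknown from it.

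A ribosome holds 1 copy of most of these proteins, assembled with ribosomal RNA into a large and a small subunit. The small subunit decodes the mRNA and the large subunit forms the peptide bond, while a stalk of Rplp0, Rplp1 and Rplp2 on the large subunit engages elongation factors. Their mRNAs begin with a tract of pyrimidines through which growth signals control translation of the whole set, and some have a paralogue that is used in particular tissues.

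The first bases of these transcripts are shown for members that the results turn on. Each is the 30 bases from 10 before to 20 after the start annotated by RefSeq (GRCm38.p6), with the longest run of C and T near the start in capitals.
Rpl35, chr2:39005112-39005141, minus strand: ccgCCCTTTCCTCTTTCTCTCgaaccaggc
Rps27, chr3:90213629-90213658, minus strand: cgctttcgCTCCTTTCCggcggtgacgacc
Rps27l, chr9:66946076-66946105, plus strand: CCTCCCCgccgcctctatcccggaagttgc
Rpl22l1, chr3:28805498-28805527, plus strand: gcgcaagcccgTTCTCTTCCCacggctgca
Rpl39, chrX:37085203-37085232, minus strand: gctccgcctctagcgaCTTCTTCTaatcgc
Rpl39l, chr16:10170218-10170247, plus strand: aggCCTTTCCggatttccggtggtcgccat
Rpl34, chr3:130730318-130730347, minus strand: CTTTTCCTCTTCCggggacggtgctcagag
Rpl12, chr2:32961702-32961731, plus strand: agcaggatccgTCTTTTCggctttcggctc
Rps25, chr9:44407704-44407733, plus strand: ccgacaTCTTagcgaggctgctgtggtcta
Rpl41, chr10:128549149-128549178, minus strand: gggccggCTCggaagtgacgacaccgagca
The run is long in Rpl35 and short in Rps25 and Rpl41 at the annotated start. Of the 84 genes, 63 had 300-base start regions in the RefSeq table, 75 regions in all. A run of at least 6 pyrimidines overlapped the stretch from 5 bases before to 10 after the start in 48.0% of these regions, against 24.4% of all 32851 regions in the table. On either strand of the 300 bases, CCGGAAG (the core bound by ETS factors) was present in 36.0% against 8.86%, and CCATNTT (a YY1-type motif) in 34.7% against 16.1%. TATAAA was present in 9.33% against 13.6%. These are matches of letters at annotated starts, and several members, Rpl22 among them, have more than 1 such start. Of the sequences shown, Rpl34 and Rps27l have another start, where the run was 6 and 4 bases.

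The ribosomal protein genes were among the highest rows of every library. Their median level over the 84 genes was 824 FPKM in the mMSCs and 672 FPKM in the HL1cm, taking each gene at its median over cells. In the mMSCs 35 of the 84 genes had a median of 1000 FPKM or more and 77 of 100 or more, and in the HL1cm 31 and 73. In all 23 libraries, 74 genes were at 1 FPKM or more and 67 at 100 or more. The genes of the small subunit had a median of 959 FPKM in mMSCs and 782 in HL1cm, and those of the large subunit 742 and 655.

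Summed over the genes, ribosomal proteins made up 11.3% to 19.7% of the FPKM of a single mMSC, with a median of 15.3%, when rows of small RNAs were left out of the total. The lowest was mMSC6 and the highest mMSC16. The 5 HL1cm were at 11.2%, 12.3%, 10.4%, 12.6% and 14.5%, and the population controls at 11.3% (mMSC-PC) and 11.2% (HL1cm-PC). The ranges of the cell types overlapped, and both controls lay at the low end of the single cells. These are shares of a sum of FPKM and do not give the amount of RNA in a cell, so fewer transcripts and less RNA per cell cannot be told apart.

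**Figure D1:**
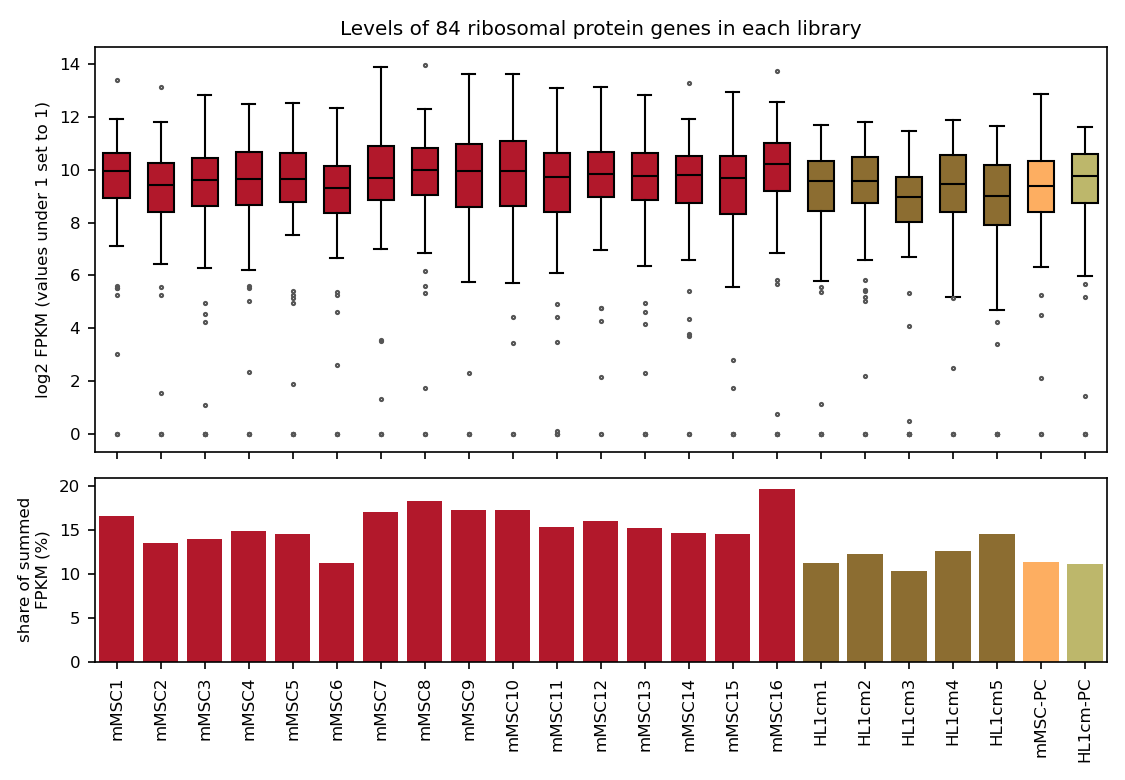
The upper panel plots log2 FPKM of the 84 genes in each library (boxes: quartiles and median; whiskers: 1.5 times the interquartile range; points: genes beyond them), with values under 1 set to 1, and the lower panel their percent of summed FPKM without small RNA rows. Red marks mMSCs, brown HL1cm, and the 2 bars at the right the population controls; the median line of HL1cm3 is the lowest and that of mMSC16 the highest among the single cells.

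The libraries differed in rows of small RNAs such as microRNAs and small nucleolar RNAs, which took up 4.69% to 75.01% of the summed FPKM in mMSCs and 2.16% to 76.2% in HL1cm. They were above 50% in 6 libraries, mMSC1, mMSC8, mMSC16, HL1cm1, HL1cm3 and HL1cm5, while mMSC-PC had 0.199% and HL1cm-PC 2.40%. Between 5178 and 7241 rows reached 1 FPKM in a single mMSC, fewest in mMSC9 and mMSC15, and between 6428 and 7010 in a single HL1cm. Of the 8 mesenchymal markers chosen, 7 were detected in mMSCs and 3 in HL1cm, and their sum was 2146 to 6145 FPKM in mMSCs and 557 to 1005 in HL1cm. Thy1 was at 0 in both. All 9 cardiomyocyte markers were detected in HL1cm and 6 in some mMSCs, with sums of 31860 to 57695 FPKM in HL1cm and 150.4 to 1714 in mMSCs, and Nppa was at 0 in every mMSC. Markers of macrophages summed to 3.10 to 369 FPKM in mMSCs with Ptprc, Lyz2, Emr1 and Tyrobp at 0 in all of them, and their part in the results was not tested.

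Rpl41, the smallest ribosomal protein, had the highest median in both cell types. It was at 5133 to 15837 FPKM in mMSCs, with a median of 8969. The 5 HL1cm had 3228, 3561, 2867, 3734 and 3100.0 FPKM, all below the lowest mMSC. Rpl36 was above it in HL1cm1 (3343 FPKM), and Rpl13 in HL1cm5 (3189) and HL1cm-PC (3115). Rps18 (3017 FPKM) was above it in HL1cm-PC as well. Next in mMSCs were Rpl35 of the large subunit (median 3788 FPKM), Rps14 (3221), Rpl39 at the exit tunnel (2869) and Rps18 (2796), whose ranges overlapped one another. FPKM is per length, but genes with short GENCODE transcripts tended to be higher. Over the 81 genes with a GENCODE transcript that passed the filter, Pearson's r between transcript length and mean log2 FPKM in mMSCs was -0.44 and Spearman's rho -0.28. For coding length they were 0.06 and 0.02. The lengths come from GENCODE M21 and not from the annotation behind the FPKM. The genes share libraries and are not replicates.

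At the other end, Rps15a, a core protein of the small subunit, was at 1.67 to 13.003 FPKM in mMSCs, at 0 to 5.67 in HL1cm and at 4.38 and 2.69 in the population controls. In mMSCs it was below every other core member in median, and 2 rows of its annotated pseudogenes, Rps15a-ps4 and Rps15a-ps6, reached 48.0 and 27.3 FPKM in single mMSCs. Rpl22 followed with 6.95 to 57.5 FPKM in mMSCs. Its paralogue Rpl22l1 was above it in median, as described below. Of the 84 genes, Rpl10l was at 0 in every library and Rpl3l was above 0 in only 1 single cell, which left 82 that reached 1 FPKM in at least 2 of the 21 single cells. The order of the levels was similar in both cell types, with Spearman's rho of 0.84 over these 82 genes, which share the table's gene lengths.

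**Figure D2:**
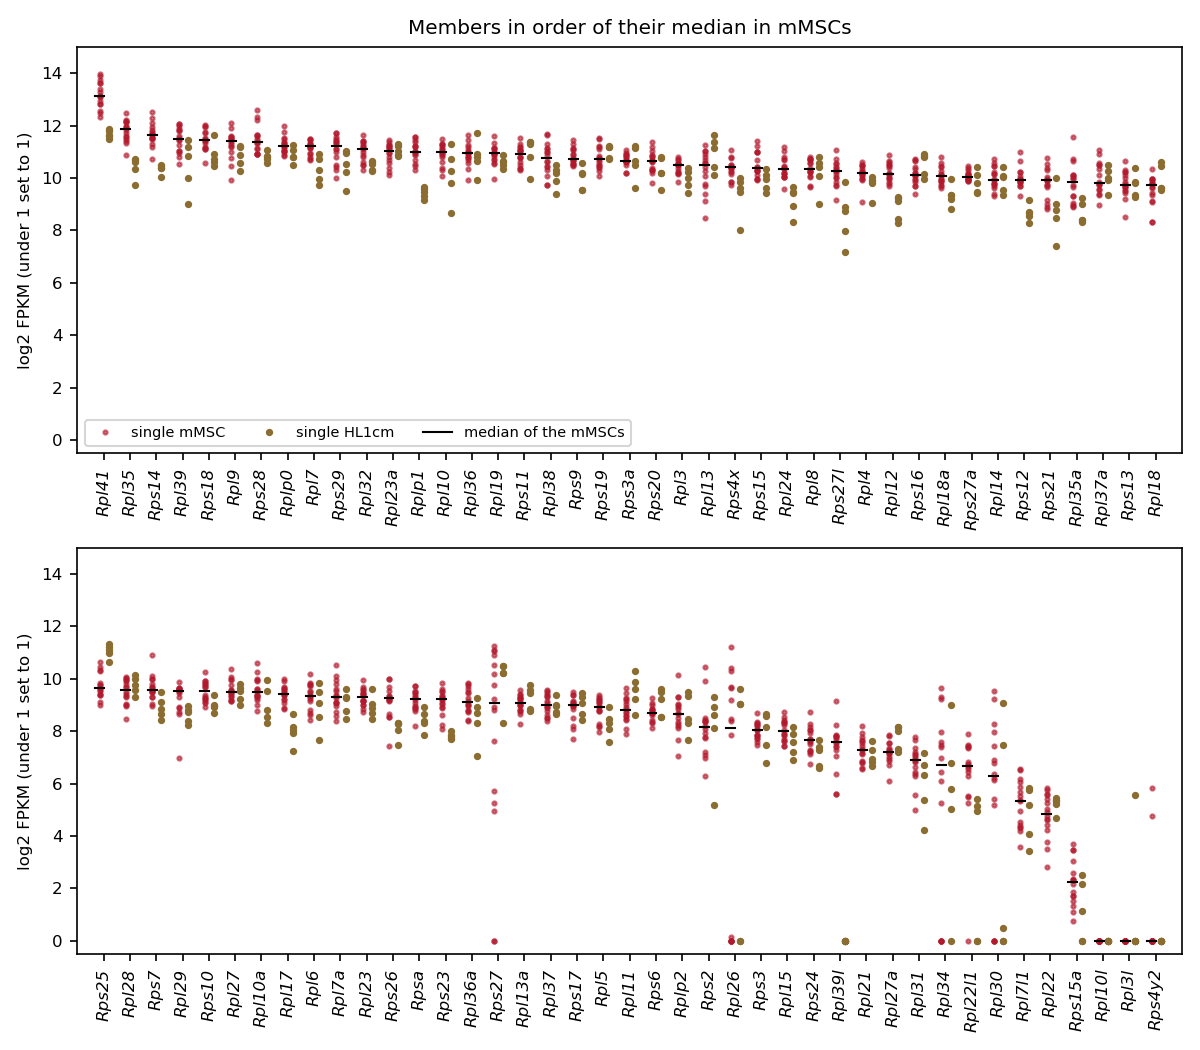
Each point is the log2 FPKM (values under 1 set to 1) of a named gene in a single mMSC (red) or a single HL1cm (brown), with genes in order of their median in mMSCs (black line) across the upper and then the lower panel. Most genes form narrow columns between about 8 and 12, while Rps27, Rpl26, Rpl34 and Rpl30 spread from 0 upwards.

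Most ribosomal protein genes varied little between single mMSCs. The SD of log2 FPKM had a median of 0.46 over the 82 genes. Over the 76 genes at 1 FPKM or more in all 16 mMSCs it was 0.43, against 0.86 over all 2143 rows at that level and 0.66 over the 755 other rows that also had a median of 100 FPKM or more. It was under 0.5 for 71.1% of the 76 genes, against 10.4% of the 2143 rows and 19.1% of the 755.

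The steadiest was Rps27a, which codes for a fusion of ubiquitin and a small subunit protein, at 939 to 1411 FPKM in mMSCs (SD 0.18). Rps3a followed with 1170 to 2125 FPKM (SD 0.24), then Rpl3 (SD 0.25), Rpl7 (SD 0.26) and Rps6, the substrate of S6 kinase, with 278 to 609.7 FPKM (SD 0.29). None of these 5 varied by more than 2.19-fold between the lowest and the highest mMSC. The widest of the 76 was Rps2, at 78.0 to 1392 FPKM (SD 1.03), highest in mMSC1 and lowest in mMSC15. Rpl7l1 (SD 0.91), Rpl39l (0.90), Rps15a (0.87) and Rpl22 (0.86) came next, all among the lower members in level.

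Over the 16 mMSCs the genes rose and fell together weakly in the deposited values. The median Pearson r over pairs of the 76 genes was 0.20, and 74.1% of the pairs were above 0, while over pairs of all 2143 rows the median was -0.0012 and 49.8% were above 0. Rescaling to an equal sum over all rows raised these medians to 0.66 for the members and 0.38 for all rows, and rescaling on general-use genes to 0.56 and 0.11. With an equal sum without small RNA rows they were 0.14 and 0.0068. An equal median of the members, which takes out the level they share, gave 0.034 and 0.083. Pairs within the large subunit (0.21), within the small subunit (0.18) and across the subunits (0.20) were alike. The mean level of the large subunit and that of the small subunit had r of 0.71 and rho of 0.75 over the 16 cells, which share each library's scaling. Rps19 (r 0.90 with the mean of the members) and Rpl19 (0.90) were closest to the members' mean, and Rps23 (-0.51) and Rpl39 (-0.37) moved the other way. Of rows outside the rule, those most like the mean were C130022K22Rik (r 0.74), the splicing protein gene Snrpd2 (0.72), Mkln1 (0.72) and Mif (0.69). The median level of the members in a cell had r of 0.07 with the mean of 26 cell cycle genes and -0.30 with the number of rows at 1 FPKM.

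A few members were at 100 FPKM or more in some cells and near 0 in others. Rpl26, a large subunit protein near the exit tunnel, was under 1 FPKM in 6 mMSCs and 2 HL1cm and at 100 or more in 9 mMSCs and 3 HL1cm, up to 2365 FPKM. Rpl30 was under 1 in 4 mMSCs and 2 HL1cm, with 740.2 FPKM at most. Rpl34 was under 1 in 5 mMSCs and 1 HL1cm, and Rps27 in 2 mMSCs, mMSC5 (0.795) and mMSC11 (0.429). In the population controls the same genes were at 357 and 1295 FPKM (Rpl26), 134 and 51.0 (Rpl30), 38.1 and 63.5 (Rpl34) and 748 and 194 (Rps27). No cell had all 4 of them under 1 FPKM.

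Rpl34 changed places with the row of Rpl34-ps1, a processed pseudogene that holds 39.9% of its 75-base stretches. In mMSC8, mMSC14 and HL1cm5, Rpl34 was at 626, 798 and 507 FPKM and Rpl34-ps1 at 0.248, 0.854 and 0.265. In mMSC3 and mMSC16, Rpl34 was listed at 0 and Rpl34-ps1 at 457 and 1792. The SD over the mMSCs was 3.80 for Rpl34 and 3.33 for Rpl34-ps1 but 0.53 for their sum, which ranged from 457 to 1792 FPKM, and over the HL1cm it was 3.32, 4.13 and 0.55. The sum, chosen after the values were seen, thus varied between cells about as the other ribosomal protein genes did.

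**Figure D3:**
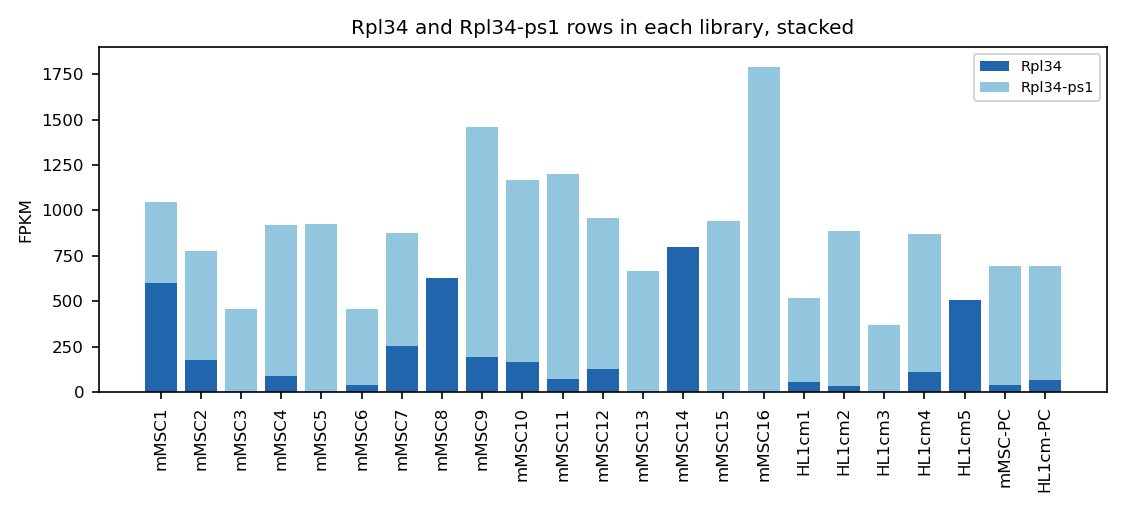
Stacked bars give FPKM of Rpl34 (dark) and Rpl34-ps1 (light) in each of the 23 libraries. The height of the stack is 457 to 1792 in mMSCs and 369.5 to 885 in HL1cm, while mMSC8, mMSC14 and HL1cm5 are nearly all dark and 6 other single cells are nearly all light.

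Sequence shared with other loci was common to these genes. A stretch of 75 bases, the length of a read, occurred also in another annotated gene that does not overlap the member for 79 of the 83 members with a GENCODE transcript, and the median share of such stretches was 39.9%. For Rps27 it was 98.5%, for Rpl3 83.2%, for Rps2 69.0% and for Rpl26 48.9%, while Rpl39l, Rpl3l and Rps3 were among those with none. Over 81 members this share had r of 0.07 with the SD between mMSCs. The number of other genes holding such a stretch had r of 0.0039 with the SD over the 81, and 0.34 over the 75 left without 6 genes that were under 1 FPKM in some single cells and at 100 or more in others. How the reads of these stretches were assigned was not tested.

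Comparing the cell types, the ribosomal protein genes were somewhat higher in single mMSCs than in single HL1cm in the deposited values, but by an amount that depended on the scaling. By mean log2 level 62 of the 82 genes were higher in mMSCs and 20 lower, with a median difference of 0.47, against 0.08 over all 11850 rows that passed the same filter. A 2-fold or greater difference was seen in 18 genes toward mMSCs (background 21.4% of all rows) and in 2 toward HL1cm (background 21.6%), that is in 22.0% and 2.44% of the members. Most members lay within 2-fold, 75.6% of them against 57.0% of all rows. With the libraries rescaled on 12 genes of general use, the median difference was -0.04 and 6 genes passed 2-fold in each direction (backgrounds 17.3% higher and 28.6% lower). Of those 12 genes, B2m (3.91) and Actb (2.23) were themselves higher in mMSCs. Rescaling to an equal sum over all rows gave 0.80, with 30 and 1 (25.5% and 17.9%). These scalings moved the median of all rows from 0.08 to -0.17 and 0.24, and the members relative to it from 0.39 to 0.13 and 0.57.

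Small RNA rows moved with this difference, and their part in it was not tested. Without the 6 libraries above 50% small RNA, which leaves 13 mMSCs and 2 HL1cm, the median difference of the members was 0.12 against 0.18 for all rows, and 10 genes were 2-fold higher (background 24.8%) and 8 2-fold lower in mMSCs (25.7%). The levels of the members relative to one another do not depend on the scaling. With every library brought to the same median of the members, 7 genes were 2-fold higher in mMSCs (background 17.5%) and 6 lower (27.4%). The 13 settings compared were the deposited values, 4 scalings, each of the 5 HL1cm left out in turn, mMSC9 and mMSC15 left out, the 6 small RNA libraries left out, and this last together with the equal median of the members. Over these settings 36 of the 82 genes were higher in mMSCs throughout and 10 lower, and the sign of the other 36 differed between settings.

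**Figure D4:**
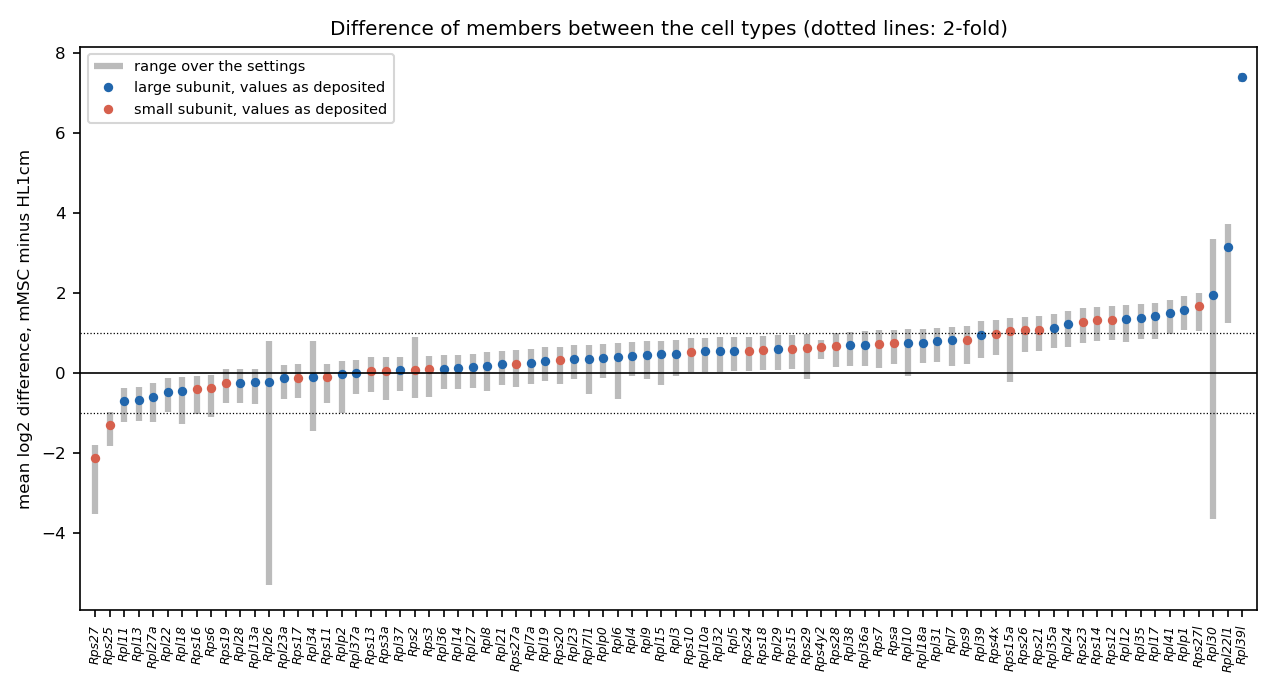
Points give each named gene's mean log2 FPKM in 16 mMSCs minus that in 5 HL1cm (blue: large subunit, red: small subunit), ordered by size, and grey bars the lowest and highest value over the 13 settings; values under 1 FPKM were set to 1, on which the point of Rpl39l, at 0 in all HL1cm, depends. The bars of 36 genes cross 0, while the others keep their side, among them Rps27 and Rps25 at the left and Rpl22l1 and Rpl39l at the right.

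By subunit, 37 of 49 large subunit genes and 25 of 33 small subunit genes were higher in mMSCs, with medians of 0.43 and 0.58. In 10 of the 82 genes every mMSC was above every HL1cm (background 2.19% of all rows) and in 1, Rps25, every mMSC was below (background 1.77%). Rows of higher level separated more often than all rows. Of 606 other rows at 100 FPKM or more by mean log2 level over both cell types, 5.94% were above and 5.78% below. Of the 72 members at that level, 9 were above and 1 below. Of 818 other rows with a median of 100 FPKM or more in mMSCs, 17.7% were above and 2.32% below. These matched rows were counted on the deposited values only. Among the 10 genes were Rpl12, Rpl17, Rpl35, Rpl39l, Rpl41 and Rplp1 of the large subunit and Rps12, Rps14 and Rps23 of the small subunit. This count depended on the scaling: with an equal sum over all rows 1 gene was above (background 1.76%) and 0 below (1.22%), and on the general-use genes again 1 (1.62%) and 0 (2.23%). Without the 6 small RNA libraries, 12 were above (3.96%) and 8 below (6.77%). With the members brought to the same median, 7 genes (among them Rpl24, Rpl35, Rpl39l, Rpl41, Rps12 and Rps14) were above (background 1.72%) and 6 (among them Rps6, Rps16, Rps19, Rps25 and Rpl13a) below (background 2.66%).

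The stalk proteins differed from one another. Rplp1 was at 1280 to 3059 FPKM in mMSCs, with a median of 2051, and at 565, 644, 800.4, 716 and 773 FPKM in the HL1cm. All mMSCs lay above all HL1cm (difference 1.58, SD 0.38 and 0.21; 1.07 to 1.92 over the settings). The controls were closer, at 1434 and 1238 FPKM. Rplp0, which anchors the stalk, was at 1850 to 4056 FPKM in mMSCs and 1436 to 2422 in HL1cm (difference 0.39), and Rplp2 at 132 to 1127 and 202 to 727 (difference -0.03). Their ranges overlapped.

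Rpl41, first by median in both cell types, took up 6.24% to 13.2% of the summed members in mMSCs against 4.30% to 5.44% in HL1cm. Its difference was 1.49 (SD 0.50 and 0.15), that of Rpl35 1.38, that of Rpl12 1.36 and that of Rps14 1.32. The controls had the same direction for these 4 genes, with 7398 against 2940 FPKM for Rpl41 and 981 against 390.3 for Rpl12. Rpl17 had no such difference in the controls, at 440.1 and 442 FPKM, beside 464 to 1030 FPKM in mMSCs and 247, 402, 285, 264 and 151 in HL1cm.

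Rps25, a small subunit protein needed for initiation on some viral RNAs, went the other way. It was at 507 to 1594 FPKM in mMSCs, with a median of 804. The HL1cm had 2359, 2550.5, 2026, 2169 and 1604 FPKM, the lowest of which was just above the highest mMSC. The difference was -1.31 (SD 0.47 and 0.26), 2.48-fold higher in HL1cm, and from -1.82 to -0.97 over the settings. The population controls had 502 and 2769 FPKM. Rpl11 (-0.71), which with Rpl5 binds Mdm2 when ribosome assembly is disturbed, was lower in mMSCs under all 13 settings as well, and Rpl5 had a difference of 0.55.

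Rps27 had the lowest difference of all, -2.12, but with an SD of 3.70 in mMSCs. It ranged from 0.429 to 2417 FPKM in mMSCs, with a median of 543, and the HL1cm had 1195, 1431, 318, 1449.7 and 1190.2 FPKM. The ranges overlapped, and the population controls had the opposite order, 748 FPKM in mMSC-PC and 194 in HL1cm-PC. Rpl30 (1.94) and Rpl26 (-0.21) turned to -3.46 and -5.11 without the libraries above 50% small RNA, since the 2 HL1cm left were among those with high values.

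Among the members with other known roles, Rps19, mutated in Diamond-Blackfan anemia, had a difference of -0.25, Rpl13a -0.23, Rps6 -0.38 and Rps3, also a DNA repair factor, 0.09. Rpl38 (0.69), Rpl10 (0.76), Rpl4 (0.43) and Rpsa (0.75), the laminin receptor precursor, were higher in mMSCs by less than 2-fold, and Rps27a differed by 0.23. In the deposited values the ranges of all 9 overlapped between the cell types. With an equal median of the members, Rps6, Rps19 and Rpl13a were lower in mMSCs without overlap.

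The paralogues Rpl39l (7.39) and Rpl22l1 (3.15) had the largest differences toward mMSCs of all members. Of the paralogues, only Rpl39l separated the cell types without overlap in the deposited values. Rpl39l, a paralogue of Rpl39 best known from the testis, was detected in all 16 mMSCs at 48.7 to 565 FPKM, with a median of 191, and at 127 FPKM in mMSC-PC. Every HL1cm library, the population control too, listed it at 0. It made up 1.29% to 17.0% of the sum of Rpl39l and Rpl39 in mMSCs. Rpl39 itself was at 1465 to 4286 FPKM in mMSCs and at 1018, 1825, 509.7, 2335 and 2814 FPKM in HL1cm. The groups did not overlap for Rpl39l under any of the 13 settings, and none of its stretches of 75 bases occurred in another gene.

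Rpl22l1, the paralogue of Rpl22, was at 38.5 to 240.2 FPKM in 15 mMSCs and at 0 in mMSC16. In HL1cm it was at 42.3, 35.4 and 31.2 FPKM in 3 cells and at 0 in HL1cm1 and HL1cm3, and the controls had 80.6 (mMSC-PC) and 36.3 FPKM (HL1cm-PC). Rpl22 was at 6.95 to 57.5 FPKM in mMSCs and 26.1 to 43.8 in HL1cm. The paralogue's share of the pair was 79.0% in median in mMSCs and 78.0% in mMSC-PC, against 48.8% in HL1cm and 34.1% in HL1cm-PC. Of the stretches of Rpl22l1, 49.6% were shared with other genes.

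Rps27l, a paralogue of Rps27 that is a target of p53, was at 569 to 2144 FPKM in mMSCs, with a median of 1218. The HL1cm had 424, 914, 472, 255 and 145 FPKM, and 1 of them, HL1cm2, was within the range of the mMSCs. The difference was 1.67 (SD 0.46 and 1.00), and 1.06 to 2.01 over the settings. The controls had the opposite order, 501 FPKM in mMSC-PC and 984 in HL1cm-PC. Rps27l had 4.39% of its stretches in other genes, against 98.5% for Rps27.

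Of the other paralogues, Rpl3l and Rps4y2 were rare. Rpl3l, the form of Rpl3 found in heart and skeletal muscle, was at 46.9 FPKM in HL1cm1 and at 0 in the other 22 libraries, HL1cm-PC included. Rps4y2 was at 27.5 FPKM in mMSC12 and 56.5 in mMSC15 and at 0 elsewhere. Rpl7l1 was in all single cells, at 11.8 to 93.6 FPKM in mMSCs and 10.6 to 56.7 in HL1cm, with 0.413% to 4.54% of the sum with Rpl7 in mMSCs. Rpl36al, which the rule does not cover, was at 531 to 1236 FPKM in mMSCs and 29.9 to 586 in HL1cm, near the level of Rpl36a at 332 to 924 and 133 to 615.

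**Figure D5:**
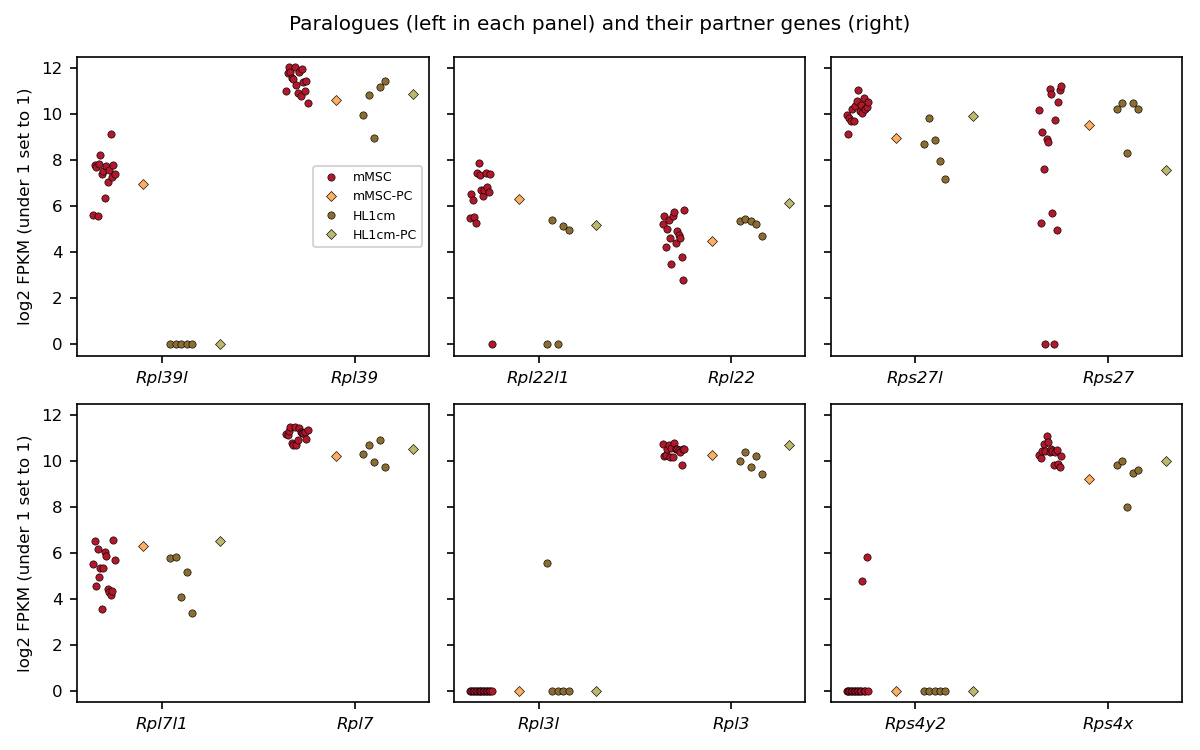
Each panel plots log2 FPKM (values under 1 set to 1) of a paralogue at the left and its partner at the right, with circles for single mMSCs (red) and HL1cm (brown) and diamonds for the population controls. Rpl39l lies between 48.7 and 565 FPKM in all mMSCs and at 0 in all HL1cm libraries, whereas its partner Rpl39 overlaps between the cell types.

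The population controls bear on these differences as 1 library of each type. The median level of the 82 genes was lower in mMSC-PC (680 FPKM) than in HL1cm-PC (890), the reverse of the order in the single cells. In the single cells that level had a median of 897 FPKM over mMSCs and 720 over HL1cm. The difference between mMSC-PC and HL1cm-PC had the same sign as that between the single cells for 43 of the 82 genes, and for 15 of the 20 genes that were 2-fold apart, 6 of them by 2-fold or more in the controls as well. Relative to the mean of its own single cells, the median of the genes was -0.26 in mMSC-PC and 0.40 in HL1cm-PC, against 0.39 and 0.83 over all rows. Over the 606 other rows at 100 FPKM or more by mean log2 level over both cell types it was -0.24 and 0.40, close to the members. For the members the direction turned with the scaling, to 0.31 in mMSC-PC with an equal sum over all rows and to -0.53 in HL1cm-PC on the general-use genes. In mMSC-PC 5 genes were 2-fold above and 5 below the mean of the mMSCs (backgrounds 36.1% and 8.85% of all rows). In HL1cm-PC 8 were above and 1 below (46.2% and 6.21%). Of the 606 rows, 64 were above and 122 below in mMSC-PC, and 117 and 47 in HL1cm-PC.

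A further 25 genes were listed as known to share the pyrimidine tract, among them elongation factors and the noncoding Snhg5 and Snhg6. Of these, 8 were 2-fold higher in mMSCs and 2 lower (32% and 8%, against 21.4% and 21.6% of all rows), with a median of 0.72. Tpt1, for example, was at 688 to 3066 FPKM in mMSCs and 487 to 925 in HL1cm (difference 1.52). The 43 genes of ribosome assembly, which make and process ribosomal RNA, had a median of 0.58. In this list 14 were 2-fold higher and 3 lower (32.6% and 6.98%). Nop56, for instance, was at 96.2 to 678 FPKM in mMSCs and 8.66 to 90.7 in HL1cm. Of 19 regulators such as Myc and genes of the mTOR pathway, 3 were 2-fold higher and 2 lower (median -0.21). These are 15.8% and 10.5%, both below the shares of all rows. Eif4e was at 72.4 to 250.2 FPKM in mMSCs and 26.7 to 110.4 in HL1cm.

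The mitochondrial ribosomal proteins had the opposite balance. Of 76 genes, 8 were 2-fold higher in mMSCs and 35 lower, with a median difference of -0.70. These are 10.5% and 46.1%, against 21.4% and 21.6% of all rows. Counts for these genes and the preceding lists were taken on the deposited values only. The 76 genes made up 0.749% to 1.23% of the summed FPKM in mMSCs and 1.47% to 1.72% in HL1cm, ranges that did not overlap. The controls had 0.649% (mMSC-PC) and 1.49% (HL1cm-PC). Mrpl37 was at 0 to 28.8 FPKM in mMSCs and 20.1 to 195 in HL1cm, and Mrps24 at 0 to 26.6 and 13.3 to 102. Mrpl16 and Mrps2 went the other way, at 0 to 105 and 9.88 to 90.7 FPKM in mMSCs and at 0 to 23.5 and 0 to 12.1 in HL1cm.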

How the data were processed

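Expression was measured by RNA-seq of SMARTer cDNA and Nextera XT libraries, sequenced from both ends. The authors used TopHat2 2.0.12 for alignment to mm10 and Cufflinks 2.2.1 for abundance, without changing the defaults, and the table they deposited gives FPKM in 23284 rows for 23 libraries. No other columns were present. Cufflinks divides reads among transcripts by estimation, so values of genes with near-identical copies are uncertain. Read counts were not used here, no count model was fitted, and precision at low values is unknown.

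For log2, anything below 1 FPKM was raised to 1, so that differences of low genes are understated. Rows at 1 FPKM or more in at least 2 of the 21 single cells were compared (11850 rows), and a 2-fold mean difference or groups without overlap were counted. Sums left out 776 small RNA rows. Each cell type was 1 sample, so no test was made, and replicate numbers only name cells. Shared stretches of 75 bases were counted in GENCODE M21 transcripts, one transcript with the longest coding sequence per gene, and start regions came from RefSeq (GRCm38.p6).

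Members named are the 5 highest and 5 lowest in mMSCs, the 8 largest 2-fold differences each way, the 5 largest and 5 smallest SDs, paralogues with partners, and members of known special role. Rows outside the rule are the 5 most like the members' mean and at most 4 per list. Others were named after their values were seen. Some genes that this rule names are counted but not reported here, nor drawn in the plots that name each gene. The genes, lists and rules were chosen with earlier results of these data known. Alternatives changed the log scale, scaling, limit of detection, members and cells. The steps were tested on simulated data with Python 3.11.15, numpy 2.4.6, pandas 2.3.3 and matplotlib 3.10.9, and a seed of 7.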

Additional observations from a re-analysis of the deposited data

Results flagged for a closer look

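Of 40 members examined in the 5 HL1cm, 4 had a lowest cell far from the others by Dixon's criterion, and chance flags about 1 in 20 groups. All 4 lows were in HL1cm3: Rpl4 at 522 FPKM, Rps14 at 1051, Rps27 at 318 and Rps4x at 256. HL1cm3 had the lowest median of the members (509.7 FPKM) and 69.7% small RNA, and the part of either was not tested.

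In 3 members the single cells lay on opposite sides of their own population control in the cell types, a difference that was not tested. The mean log2 level of the single cells minus that of the control was 0.64 in mMSCs and -0.78 in HL1cm for Rpl17, 0.77 and -0.39 for Rps25, and 1.23 and -1.42 for Rps27l.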

How the results depend on the processing

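With an equal sum over all rows, the members' share was 10.4% in mMSCs and 3.45% in HL1cm, the median SD 0.68 and 1.08, the difference between cell types 0.80 (30 genes 2-fold higher, 1 lower; 1 and 0 without overlap), the controls 0.31 (mMSC-PC) and 1.12 (HL1cm-PC) from their cells, and the median pairwise r 0.66. On general-use genes these were an SD of 0.60 in mMSCs, -0.040 (6 and 6; 1 and 0), -0.75 and -0.53, and 0.56. With an equal sum without small RNA rows, HL1cm-PC was 0.0080 from its cells and the pairwise r 0.14. With an equal median of the members, 7 genes were 2-fold higher and 6 lower, and 6 lay below every HL1cm. Without the libraries above 50% small RNA, chosen after seeing the data, the difference was 0.12, with 10 genes higher and 8 lower, and 8 below every HL1cm. The equal median of the members and all alternatives for groups without overlap were also added then. The share of all rows is given above for each of these counts. The causes were not tested.

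Leaving out each HL1cm in turn gave differences of 0.38 to 0.55, 17 to 22 genes higher and 2 to 3 lower, and 10 to 12 and 1 without overlap. Differences of the named members kept their sign wherever they were 2-fold as deposited, apart from Rpl30 and Rps15a without the small RNA libraries and Rpl3l, which was at 0 in both cell types without HL1cm1. No paired analysis was possible because the comparisons come from no test and shared replicate numbers only name cells.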
